A study of Mus musculus with 4 samples.

Results

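Mitotic iNKT1 cells were followed across 4 single-cell libraries of iNKT (invariant natural killer T) cells from the thymus, which recognise lipid antigens on the CD1d molecule. A cell was counted as one when it carried at least 1 transcript tag (unique molecular identifier, UMI) of at least 3 of 9 genes of mitosis (Mki67, Top2a, Birc5, Cdk1, Ccnb2, Ube2c, Cenpf, Nusap1 and Prc1), and at least 3 UMIs in all of Nkg7 and Il2rb, a granule protein and an interleukin receptor chain of type 1 cells. Barcodes with fewer than 1000 UMIs or 500 genes, with 10% or more mitochondrial UMIs, or with any UMI of the B cell gene Cd79a or the thymocyte gene Rag1 were left out beforehand. The rule found 593 cells among 30455 barcodes, 128 and 262 of them in ACC1 KO 1 and 2, against 36 and 167 in WT 1 and 2.

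The libraries were labelled ACC1 KO (2 libraries) and wild type, WT (2 libraries), and came from CD3+ CD1d tetramer+ cells sorted from the thymus of mice 6 to 8 weeks old. ACC1 is acetyl-CoA carboxylase 1, the enzyme encoded by Acaca that commits acetyl-CoA to fatty acid synthesis. The labels name neither the promoter or Cre behind the deletion nor the exons removed, and do not say if a library is 1 animal, so p-values measure the spread between these libraries only. The 128 and 262 mitotic iNKT1 cells of the ACC1 KO libraries held 1488683 and 4865534 UMIs, and the 36 and 167 of the WT libraries 482818 and 3339402.

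iNKT cells leave an early, dividing stage in the thymus and settle into type 1, type 2 and type 17 subsets. Type 1 cells carry the transcription factor T-bet (Tbx21), natural killer receptors, granzymes and interferon gamma, and most of them rest outside the cell cycle in the adult thymus, while the factor PLZF (Zbtb16) is highest in precursors and type 2 cells. A dividing cell copies its DNA in S phase and then switches on kinases, kinesins and kinetochore proteins for mitosis, and it needs new membrane lipid, which it makes under the factors SREBP1 (Srebf1) and SREBP2 (Srebf2) or takes up from outside.

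Genes of the gate are switched together late in the cycle, and 2 of their promoters are shown because both hold the cell cycle homology region TTTGAA, an element through which such genes are held down in resting cells. Each run covers 250 bases before to 50 bases after the transcription start in RefSeq, build GRCm38.p6, in the direction of the gene, with TTTGAA in capitals. Cdk1, the kinase that starts mitosis, lies on the minus strand and the window is chr10:69352863-69353162. Ccnb2, its cyclin B2 partner, also lies on the minus strand and the window is chr9:70421505-70421804.
Cdk1: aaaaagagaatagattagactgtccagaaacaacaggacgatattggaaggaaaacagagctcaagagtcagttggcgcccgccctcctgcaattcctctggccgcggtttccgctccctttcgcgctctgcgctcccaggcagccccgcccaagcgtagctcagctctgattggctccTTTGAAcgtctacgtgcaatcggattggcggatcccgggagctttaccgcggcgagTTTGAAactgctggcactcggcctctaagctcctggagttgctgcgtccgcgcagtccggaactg
Ccnb2: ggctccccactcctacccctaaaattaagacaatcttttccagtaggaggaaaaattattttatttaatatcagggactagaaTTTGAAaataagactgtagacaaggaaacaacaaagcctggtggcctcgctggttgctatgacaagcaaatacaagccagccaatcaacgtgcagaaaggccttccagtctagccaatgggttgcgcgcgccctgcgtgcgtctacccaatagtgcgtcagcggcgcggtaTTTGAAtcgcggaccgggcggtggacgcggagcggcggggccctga
The matches start 71 and 15 bases before the start of Cdk1, and 167 bases before and 5 bases after the start of Ccnb2. TTTGAA, searched on both strands, was present in a promoter of 7 of the 9 mitotic gate genes (Cdk1, Ccnb2, Mki67, Top2a, Ube2c, Cenpf and Prc1). It was also in a promoter of 14 of the 16 spindle and kinesin genes found, and in 17.9% of all 32851 promoters in the table. A gene counted if any of its promoters held a match, so counts of genes and shares of promoters are unlike measures. A match is a run of letters and was not tested as a binding site.

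The label was checked against markers that the gate did not use. T cell receptor constant chain Trac was detected in 93.0 and 99.6% of the mitotic iNKT1 cells of ACC1 KO 1 and 2, and in 100% and 99.4% of those of WT 1 and 2. All 16 type 1 markers averaged more than 5 CPM (counts per 1000000 UMIs). They summed to 5917 and 4915 CPM in the ACC1 KO libraries and 3227 and 4163 CPM in the WT libraries. Non-mitotic iNKT1 cells (no mitotic gate gene detected) held more, at 9031 and 8619 CPM in ACC1 KO and 8044 and 8553 CPM in WT. Mitotic cells below the Nkg7 plus Il2rb limit held less, at 819 and 722 CPM in ACC1 KO and 555 and 659 CPM in WT. The 10 type 2 markers were also present, at 1009 and 1210 CPM in ACC1 KO and 1481 and 1343 CPM in WT. The mitotic iNKT1 cells thus carried markers of both subsets. Type 2 markers summed to 478 to 697 CPM in non-mitotic iNKT1 cells and 1970 to 3276 CPM in mitotic cells below that limit. Precursor markers summed to 482 to 594 CPM in mitotic iNKT1 cells, against 283 to 348 CPM in non-mitotic ones. The B cell genes Ms4a1 and Pax5 and the myeloid genes Lyz2, Csf1r and C1qa stood at 0 in all 4 libraries. Of the 7 B cell markers only Ighm averaged more than 5 CPM, at 82.6 and 65.4 CPM in the ACC1 KO libraries and 31.1 and 41.3 CPM in the WT libraries. Summed over 7 genes, myeloid markers came to 107 and 103 CPM in ACC1 KO and 108 and 127 CPM in WT. Type 17 markers lay mainly in a few WT cells and are taken up with Il23r.

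A gate of 3 UMIs can be met by free RNA in the droplets or by a doublet. Among barcodes with at least 3 UMIs of Cd79a, which should lack Nkg7 and Il2rb, 10.2 and 6.98% met the Nkg7 plus Il2rb limit in ACC1 KO 1 and 2 and 8.10 and 33.3% in WT 1 and 2 (the last of only 18 barcodes). The shares of all kept cells were 84.2 and 90.4%, and 89.7 and 95.1%. Those B cell barcodes had medians of 3558.5 and 5842 UMIs in the ACC1 KO libraries and 4774 and 8237.5 UMIs in the WT libraries, against 4544.5 and 7483.5 UMIs, and 4690 and 6357 UMIs, in kept cells. Mitotic iNKT1 cells were deeper than both in every library, so this check was not matched to their depth. The share of them that free RNA could carry past the limit of 3 UMIs was not measured. A simulation-based caller marked 10 and 28 of the mitotic iNKT1 cells of the ACC1 KO libraries, and 0 and 15 of those of the WT libraries, as possible doublets. These were 7.81 and 10.7% of the mitotic iNKT1 cells in ACC1 KO, and 0 and 8.98% in WT. Among non-mitotic iNKT1 cells the caller marked 4.36 and 6.70%, and 3.58 and 7.66%. It marks a preset share of each library, 0.8% per 1000 cells, which came to 5.02 and 6.83% in ACC1 KO and 4.36 and 7.91% in WT. Its percentages are therefore no measured doublet rates of a library or genotype. The marked cells were kept, and doublets and single cells with more RNA cannot be told apart here. The medians were 10641.5 and 16684.5 UMIs per mitotic iNKT1 cell in ACC1 KO 1 and 2 and 11665.5 and 18316 in WT 1 and 2, which is 2.31 to 2.93 times the median of non-mitotic iNKT1 cells of the same library. The rule can add to that ratio, since depth affects how many gate genes are seen. Libraries shared 10 to 27 barcode sequences in pairs, and none of these barcodes was a mitotic iNKT1 cell in both. Libraries numbered 1 expressed Y-linked genes and those numbered 2 expressed Xist, and number 2 was the deeper in each genotype, so number, sex and depth cannot be told apart.

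The 593 cells covered a range of stages. All 9 gate genes were detected in 40 and 104 of the mitotic iNKT1 cells of ACC1 KO 1 and 2, or 31.2 and 39.7%, and in 6 and 56 of those of WT 1 and 2, or 16.7 and 33.5%. Only 3 were detected in 25 and 33 of the ACC1 KO cells and in 7 and 16 of the WT cells. Over all libraries, 8 genes of late mitosis outside the gate, among them Cdc20, which starts the separation of sister chromatids, Ccnb1 and Plk1, summed to 20.9 CPM in non-mitotic iNKT1 cells with no gate gene, 140 CPM in cells with 3, 274 CPM with 4 or 5, 438 CPM with 6 to 8 and 1405 CPM with all 9. A list of 34 DNA replication genes took another course, with 548 CPM in non-mitotic cells, 3448 at 3 gate genes, 4427 at 4 or 5, a peak of 5193 at 6 to 8 and 3410 at all 9. Ccne2, the cyclin E2 of S phase entry, stood at 79.3 CPM at 6 to 8 genes and 25.9 CPM at all 9. These sums describe the gate, since detection of the 9 genes ordered the cells. Depth followed the same order, with a median of 11651 UMIs at 3 genes and 18136 at all 9.

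**Figure D1:**
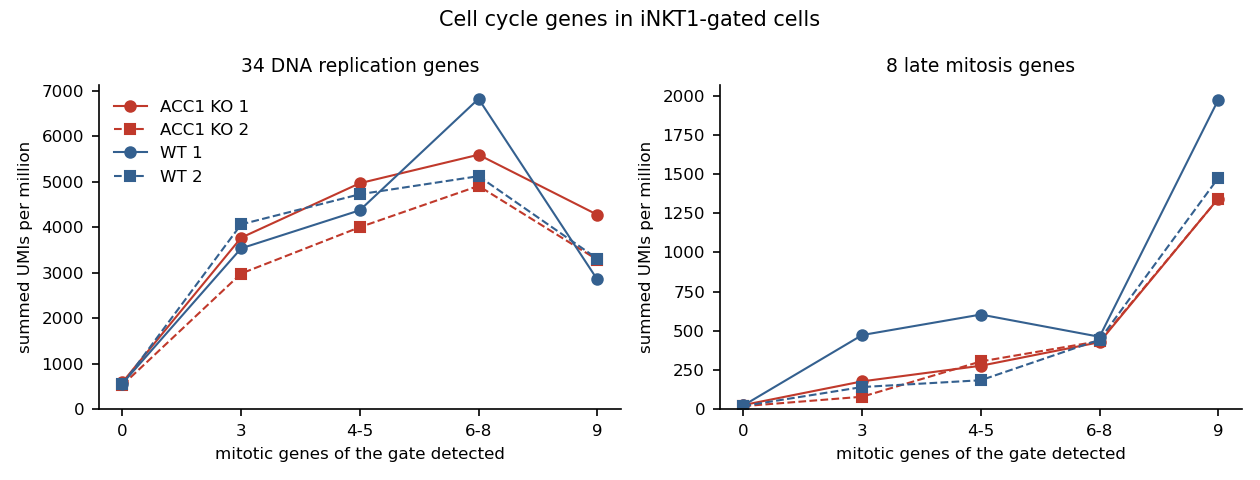
Summed CPM of 34 DNA replication genes (left) and 8 late mitosis genes (right) in iNKT1-gated cells, by how many of the 9 gate genes were detected (0 are non-mitotic cells); red is ACC1 KO, blue is WT, circles are number 1 and squares number 2. Replication genes peak at 6 to 8 gate genes in all 4 libraries and late mitosis genes at 9.

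The 81 iNKT1-gated cells with 3 gate genes held 21.6 CPM of the spindle gene Tpx2 and 39.5 CPM of the kinetochore gene Cdca8, and the 179 with 2 gate genes held 7.31 and 13.7 CPM. Pcna, the replication clamp, was at 311 CPM inside and 267 CPM outside. At the other limit, the 38 mitotic cells with exactly 3 UMIs of Nkg7 plus Il2rb held 15.0 CPM of Tbx21 and 886 CPM of Zbtb16, and the 72 with 2 UMIs held 21.8 and 932 CPM. Cells just inside the first limit thus held more mitotic RNA than those outside, while at the second limit both sides were rich in Zbtb16 and poor in Tbx21.

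Identity varied within the set along the Nkg7 plus Il2rb count. The 71 cells with 3 or 4 such UMIs had Zbtb16 at 951 CPM, Icos (a costimulatory receptor of type 2 cells) at 463 CPM, Il4 at 266 CPM and Tbx21 at 37.0 CPM. The 170 cells with 20 or more had Zbtb16 at 164 CPM, Icos at 94.7 CPM, Il4 at 36.6 CPM and Tbx21 at 147 CPM. Genes of killing, Gzmb and Gzma, were at 36.3 and 37.8 CPM in the first of these groups and at 596 and 807 CPM in the second. The 2 groups between lay in between for each of these genes.

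Libraries differed along that range. In cells with 5 to 9 such UMIs, the chemokine Ccl5 was at 1302 and 862 CPM in ACC1 KO 1 and 2 (44 and 51 cells), and at 46.5 and 18.9 CPM in WT 1 and 2 (9 and 23 cells). Gzmb was at 503 and 130 CPM in those ACC1 KO cells and at 62.0 and 30.9 CPM in the WT cells. Ccl5 was apart at 3 or 4 UMIs too, at 116 and 58.9 CPM in ACC1 KO 1 and 2 and 0 and 4.50 CPM in WT 1 and 2. At 10 to 19 UMIs it was at 1648 and 1066 CPM in ACC1 KO and 626 and 577 CPM in WT. In cells with 20 or more UMIs, Ccl5 was at 1027 and 1383 CPM in the ACC1 KO libraries (13 and 75 cells) and 1467 and 1194 CPM in the WT libraries (6 and 76 cells), where the genotypes overlapped. These groups are not samples and were not tested. The count was not scaled to depth, and cells of number 2 are the deeper.

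**Figure D2:**
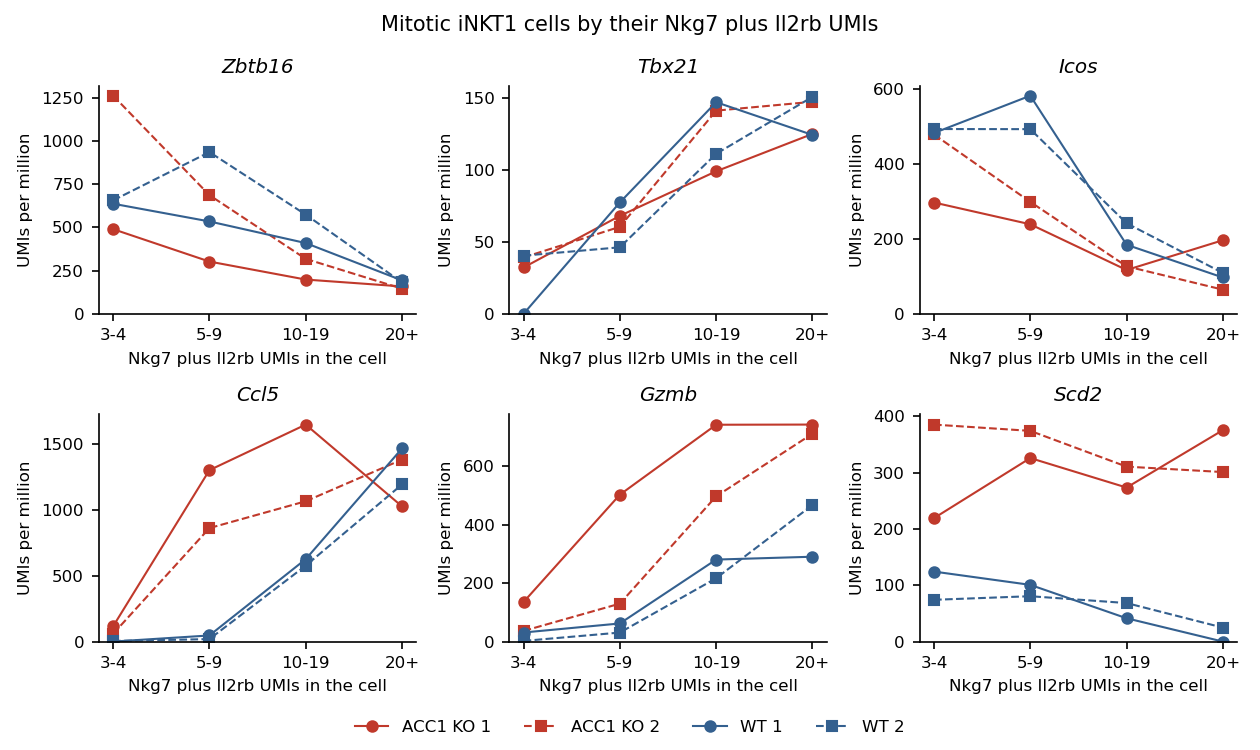
Level of 6 genes (CPM, each axis from 0) in mitotic iNKT1 cells grouped by their UMIs of Nkg7 plus Il2rb, per library; red is ACC1 KO, blue is WT, circles and solid lines are number 1, squares and dashed lines number 2. Zbtb16 is lowest and Gzmb highest at 20 or more UMIs in all 4 libraries, Ccl5 is 1302 and 862 in ACC1 KO against 46.5 and 18.9 in WT at 5 to 9 UMIs, and Scd2 is higher in ACC1 KO in every group.

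Mitotic iNKT1 cells made up 2.16% of kept cells in ACC1 KO 1 (95% exact binomial interval 1.80 to 2.56) and 3.13% in ACC1 KO 2 (2.77 to 3.53), against 0.744% in WT 1 (0.522 to 1.03) and 1.71% in WT 2 (1.46 to 1.99). The genotypes did not overlap. The mean was 2.64 ± 0.688% in ACC1 KO and 1.23 ± 0.682% in WT libraries (SD, n = 2 each), a difference of 1.42 percentage points, and the ratio was 2.90 within number 1 and 1.83 within number 2. An exact two-sided permutation test over the libraries gave p = 0.3333, the smallest that 2 against 2 allows. Among iNKT1-gated cells the mitotic share was 2.56 and 3.47% in ACC1 KO 1 and 2, and 0.829 and 1.80% in WT 1 and 2. Among cells with no UMI of further lineage genes (Cd79b, Ighm, Lyz2, C1qa, Cd8b1 and Rag2) the difference in shares of kept cells was 0.822 percentage points, with a ratio of 1.88 within number 1 and 1.66 within number 2. Intervals here cover counting error only, and the rule itself fixes what is counted.

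Depth affects how many gate genes are seen. Every cell was therefore thinned to 2000 UMIs, which left out 241 and 53 barcodes of the ACC1 KO libraries and 136 and 38 of the WT libraries. The gate and the exclusion by Cd79a and Rag1 were applied to the thinned counts. The limits on UMIs, genes and mitochondrial share were applied before thinning. Barcodes that lost their Cd79a or Rag1 UMIs could thus return, and kept cells came to 8383 in ACC1 KO 2 and 9783 in WT 2, against 8368 and 9773 before. Cells meeting the gate came to 0.496 and 0.370% of kept cells in ACC1 KO 1 and 2 (29 and 31 cells). In WT 1 and 2 they came to 0.124 and 0.327% (6 and 32 cells). The order of the genotypes stayed, with a ratio of 4.00 within number 1 and 1.13 within number 2. In number 2 the binomial intervals, 0.251 to 0.524% in ACC1 KO and 0.224 to 0.461% in WT, overlapped, so that difference was not detectable at this depth.

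**Figure D3:**
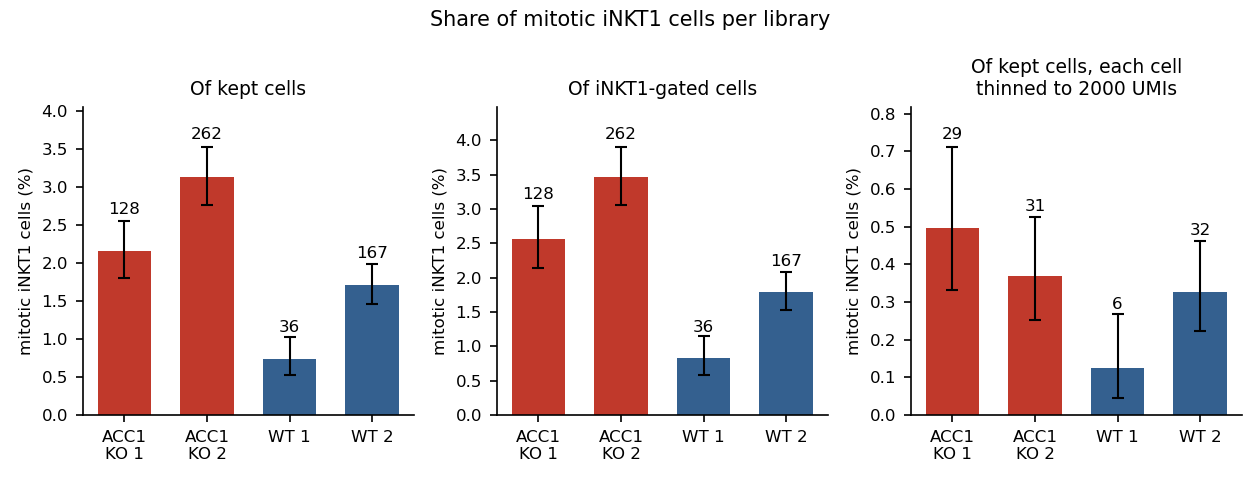
Mitotic iNKT1 cells as a percentage of kept cells, of iNKT1-gated cells, and of kept cells after thinning to 2000 UMIs, in the ACC1 KO (red) and WT (blue) libraries; lines are 95% exact binomial intervals and numbers are cells. Both ACC1 KO bars stand above both WT bars in each panel, and after thinning the intervals of ACC1 KO 2 and WT 2 overlap.

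Set beside non-mitotic iNKT1 cells (23825 cells with none of the 9 genes), the mitotic iNKT1 cells carried the proliferation program in every library, as their rule implies, and no test was made of this contrast. Stmn1, which destabilises microtubules, was at 2324 and 1457 CPM in the mitotic iNKT1 cells of the ACC1 KO libraries and 1976 and 1678 CPM in those of the WT libraries, against 17.5 to 30.8 CPM in non-mitotic cells. Rrm2, a subunit of the enzyme that makes deoxynucleotides, stood at 206 to 236 CPM against 1.21 to 1.41 CPM, and the chromatin protein Hmgb2 at 3498 to 3771 CPM against 340 to 386 CPM. Zbtb16 was at 255 and 473 CPM in the mitotic iNKT1 cells of the ACC1 KO libraries and 441 and 478 CPM in those of the WT libraries, against 115 to 156 CPM in non-mitotic cells. Over all libraries, mitotic iNKT1 cells with 3 or 4 UMIs of Nkg7 plus Il2rb held 951 CPM of it, and those with 20 or more held 164 CPM. Genes of the resting state stood lower. Il7r, the survival cytokine receptor, was at 894 and 467 CPM in the ACC1 KO and 449 and 495 CPM in the WT mitotic cells, against 1075 to 2051 CPM in non-mitotic cells. Btg1, which restrains proliferation, was at 268 to 517 CPM against 831 to 1302 CPM, and Hopx was at 41.4 to 109 CPM against 228 to 281 CPM.

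The 305 other mitotic cells, which missed the Nkg7 plus Il2rb limit, also carried the proliferation genes, with Stmn1 at 1239 to 2582 CPM, but stood lower in type 1 genes. Gzmb was at 604 and 427 CPM in the mitotic iNKT1 cells of the ACC1 KO libraries and 191 and 265 CPM in those of the WT libraries, against 5.68 and 4.92 CPM, and 0 and 0 UMIs, in other mitotic cells. Ly6c2, a surface protein of effector T cells, was at 449 to 700 CPM against 6.19 to 34.1 CPM, and the inhibitory receptor Klra9 at 318 to 333 CPM against 0 to 9.97 CPM. Tcf7 and Igfbp4, genes of early T cells, stood lower in mitotic iNKT1 cells, at 84.7 to 115 CPM and 73.2 to 116 CPM, than in other mitotic cells, at 160 to 495 CPM and 320 to 386 CPM. Other mitotic cells of ACC1 KO 1 and WT 1 also held thymocyte markers, summing to 564 and 600 CPM. In mitotic iNKT1 cells these sums were 34.9 and 6.37 CPM in ACC1 KO 1 and 2 and 0 and 2.99 CPM in WT 1 and 2.

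Between genotypes, UMIs of the mitotic iNKT1 cells were summed per library and 9992 genes were tested with edgeR's quasi-likelihood test, with Benjamini-Hochberg adjustment over all of them and a threshold of 0.05. Acaca itself was at 61.1 and 83.4 CPM in the ACC1 KO libraries and 39.4 and 44.3 CPM in the WT libraries, a log2 fold change of 0.79 ± 0.24 (standard error) that did not pass (edgeR adjusted p = 0.9745). Tags at the 3′ end of the transcript check a deletion only if it covers them, so Acaca does not test the labels here. Of the genes tested, 6 passed, 5 higher and 1 lower in ACC1 KO, or 0.06% of those tested, and 329 had an unadjusted p under 0.05. The 5 higher genes were Scd2, Fads2, Scd1, Srebf1 and Abca1, all of lipid metabolism, and the lower one was the type 17 gene Il23r. Fads2 and Scd1 had 0 UMIs in both WT libraries, and Il23r had 0 UMIs in both ACC1 KO libraries. They met the filter on low counts only through the genotype where they were high, which limits what their p-values say. With a mean of at least 10 CPM as the filter, only Scd2, Srebf1 and Fads2 passed. With sums thinned to the smallest total, Scd2 alone passed.

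Scd2 (chr19:44293674-44306864, plus strand, GRCm38), a desaturase that puts the first double bond into saturated fatty acids, was at 301 and 331 CPM in ACC1 KO 1 and 2 and at 62.1 and 52.4 CPM in WT 1 and 2. Both ACC1 KO libraries were far above both WT libraries, at 2.53 ± 0.21 on the log2 scale (edgeR adjusted p = 0.00244), with 2.30 within number 1 and 2.65 within number 2. A UMI of Scd2 was detected in 90.6 and 97.7% of the ACC1 KO cells and in 44.4 and 46.1% of the WT cells. After thinning each cell to 2000 UMIs these shares were 46.1 and 54.2%, and 13.9 and 7.78%. No cell type sure to lack the lipid genes was measured, so the share of cells that free RNA would give a UMI of them is not known.

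Its paralog Scd1 (chr19:44394455-44407879, minus strand) was at 13.4 and 14.8 CPM in the ACC1 KO libraries, and no UMI was found in either WT library. It was seen in 13.3 and 20.6% of the ACC1 KO cells, against 0 of 36 and 0 of 167 WT cells, which allow up to 8.33 and 1.80% of cells with a UMI. Those limits are on detection, and a cell without a UMI may still express the gene. With 3 counts taken as a floor over the WT libraries, Scd1 was at least 18.4-fold higher in ACC1 KO (edgeR adjusted p = 0.0357). Non-mitotic iNKT1 cells showed the gap too, with 1046 UMIs of Scd1 in ACC1 KO against 3 in WT. In other mitotic cells the genotypes overlapped, at 1.89 and 8.61 CPM in ACC1 KO 1 and 2 and 2.06 and 0 CPM in WT 1 and 2.

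Fads2 (chr19:10062765-10101746, minus strand), the desaturase that begins the making of polyunsaturated fatty acids, was at 24.9 and 18.7 CPM in ACC1 KO 1 and 2 and likewise had 0 UMIs in both WT libraries. The 128 UMIs of Fads2 in ACC1 KO came from 21.1 and 24.0% of the cells, and it was at least 25.7-fold higher in ACC1 KO (edgeR adjusted p = 0.0256). In non-mitotic iNKT1 cells of the same ACC1 KO libraries Fads2 was at 2.52 and 3.76 CPM, and in other mitotic cells at 9.46 and 14.4 CPM. In WT 1 and 2 it had 0 UMIs in non-mitotic iNKT1 cells, and 4.13 and 0.767 CPM in other mitotic cells. The gap between genotypes was thus not confined to the mitotic iNKT1 cells. Among ACC1 KO cells it was thus highest in the mitotic iNKT1 cells of both libraries, which is given without a test because the classes were set by the gate.

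Srebf1 (chr11:60199089-60222581, minus strand), which encodes the factor that drives fatty acid synthesis genes, was at 76.6 and 73.8 CPM in the ACC1 KO libraries and 18.6 and 19.8 CPM in the WT libraries. It was 1.96 ± 0.23 higher on the log2 scale (edgeR adjusted p = 0.0256), by 2.03 within number 1 and 1.87 within number 2. Srebf1 overlaps Rai1 on the opposite strand, and whether reads were counted by strand is not given in the sources used here. Abca1 (chr4:53030787-53159895, minus strand), which exports cholesterol from the cell, was at 88.7 and 81.6 CPM in ACC1 KO and at 31.1 and 21.3 CPM in WT, 1.85 ± 0.25 higher (edgeR adjusted p = 0.0357). In both genes the genotypes were well apart, and 51.6 and 70.2% of the ACC1 KO cells, against 19.4 and 30.5% of the WT cells, held a UMI of Srebf1.

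Srebf1 and Abca1 are shown because both moved and both promoters match a fixed pattern for a DR4 element. The DR4 element is a direct repeat of the kind bound by liver X receptors, which sense oxysterols. The Srebf1 window, around 1 of 3 start sites listed for the gene, is chr11:60210422-60210721 and the Abca1 window is chr4:53159846-53160145, both on the minus strand of GRCm38.p6 and from RefSeq. Capitals mark the match, which in both lies on the strand opposite to the gene.
Srebf1: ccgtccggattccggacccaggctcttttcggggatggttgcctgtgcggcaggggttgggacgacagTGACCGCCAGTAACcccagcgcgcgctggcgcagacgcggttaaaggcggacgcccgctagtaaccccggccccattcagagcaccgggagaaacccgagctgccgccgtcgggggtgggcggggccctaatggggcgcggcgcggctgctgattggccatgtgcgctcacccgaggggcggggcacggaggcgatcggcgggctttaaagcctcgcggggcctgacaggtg
Abca1: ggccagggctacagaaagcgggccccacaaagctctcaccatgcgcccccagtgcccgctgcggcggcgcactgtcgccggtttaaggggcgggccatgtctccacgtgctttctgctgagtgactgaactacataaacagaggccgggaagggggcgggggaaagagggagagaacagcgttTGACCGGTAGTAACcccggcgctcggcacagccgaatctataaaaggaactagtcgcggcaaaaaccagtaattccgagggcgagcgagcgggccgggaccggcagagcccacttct
The match begins 182 bases before the start in Srebf1 and 67 bases before it in Abca1. Searched on both strands, the fixed pattern for the element was in 36 of 32851 promoters, or 0.11%. The pattern leaves only letters in its middle free, so other forms of the repeat were not counted. Promoters were found for 4 of the 6 genes past the threshold, and 2 of these 4 genes held the element in at least 1 promoter. Among the lipid lists Fasn and Acsl3 did so too. Here as well, counts of genes and shares of promoters are unlike measures. Whether the pattern was chosen independently of Srebf1 and Abca1 is not known, so finding it in them is no test. Binding was not measured, and a role of liver X receptors was not tested.

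**Figure D4:**
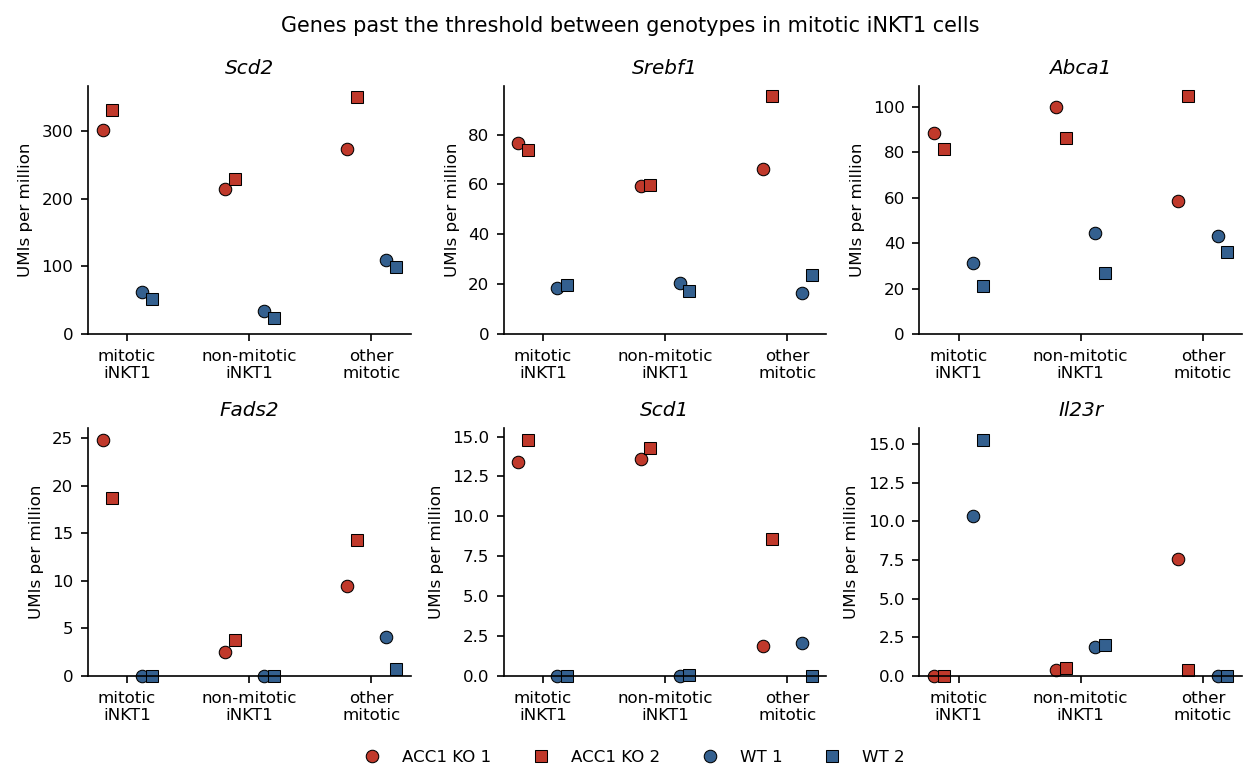
CPM of the 6 genes past the threshold, by class of cell, in ACC1 KO 1 and 2 (red circle and square) and WT 1 and 2 (blue circle and square). In mitotic iNKT1 cells Fads2 and Scd1 are at 0 in both WT libraries and Il23r at 0 in both ACC1 KO libraries. The gap between genotypes in Scd2, Srebf1 and Abca1 is seen in the other classes too. Fads2 and Scd1 are also higher in ACC1 KO in non-mitotic iNKT1 cells. In other mitotic cells Fads2 is higher in ACC1 KO, while Scd1 overlaps.

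The remaining lipid synthesis genes stood mostly higher without passing the test. In the fatty acid synthesis list, 19 of 23 members were tested and 4 passed, all higher. In 12 of the 19 both ACC1 KO libraries were above both WT libraries, none was below, and the median log2 fold change was 0.75. Over all genes tested, 15.9% were higher and 16.1% lower without overlap and the median was 0.01. Fasn, fatty acid synthase, was at 82.0 and 66.0 CPM in ACC1 KO and 35.2 and 28.7 CPM in WT (1.28 ± 0.24, edgeR adjusted p = 0.189). Elovl5, which lengthens polyunsaturated fatty acids, was at 120 and 147 CPM against 39.4 and 69.8 CPM (1.19 ± 0.25, edgeR adjusted p = 0.323).

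Genes of cholesterol synthesis gave the highest list median. Of 25 members 22 were tested, 16 were higher and none lower without overlap, none passed, and the median log2 fold change was 0.88, at 0.84 within number 1 and 0.92 within number 2. Fdps, a synthase of the isoprenoid branch, was at 88.0 and 102 CPM in ACC1 KO and 37.3 and 36.8 CPM in WT (1.39 ± 0.22, edgeR adjusted p = 0.0653). Srebf2 and Insig1 had log2 fold changes of 1.07 and 1.56, with edgeR adjusted p of 0.362 and 0.379. Efflux and storage were mixed. Abcg1, the partner exporter of Abca1, was at 138 and 163 CPM in ACC1 KO and 60.1 and 59.6 CPM in WT (1.35 ± 0.20, edgeR adjusted p = 0.0567), but the median of the 16 tested genes of uptake, activation and storage was 0.04, with 6 higher and 0 lower without overlap and Abca1 alone past the threshold. For fatty acid oxidation the median over 17 tested genes was -0.09, with 1 higher and 3 lower without overlap. The shares over all genes tested, 15.9% higher and 16.1% lower, belong beside these counts too.

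Il23r (chr6:67422932-67491855, minus strand), the receptor that type 17 cells need, was the gene that fell, and it marked a handful of cells. It had 0 UMIs in both ACC1 KO libraries and 10.4 and 15.3 CPM in WT 1 and 2, at least 31.0-fold lower in ACC1 KO (edgeR adjusted p = 0.0357). All of its WT UMIs lay in 1 cell of WT 1 and 5 cells of WT 2. At least 3 of 8 type 17 markers were detected in 0 of 128 and 0 of 262 ACC1 KO cells, and in 2 of 36 and 6 of 167 WT cells, and those 8 cells held 23 of the 24 and 333 of the 356 type 17 UMIs of WT 1 and 2. The 8 markers summed to 3.36 and 1.44 CPM in ACC1 KO and 49.7 and 107 CPM in WT. Leaving out every cell with a UMI of a type 17 marker, a choice made after seeing the data, left 3 genes past the threshold, all higher: Scd2, Srebf1 and Fads2. In these sums fewer type 17 cells and less RNA per cell cannot be told apart.

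Which genes passed depended on the libraries used. Without ACC1 KO 1, ACC1 KO 2, WT 1 or WT 2, the counts past the threshold were 73, 50, 19 and 4. The lone library of a genotype was then assumed to vary like the others. All 6 genes were among those called without ACC1 KO 1, ACC1 KO 2 or WT 1, while without WT 2, which leaves the 36 cells of WT 1 as the WT, only Scd2 of the 6 remained. Among cells with no UMI of further lineage genes 4 of 8544 genes passed, among them Scd2, Srebf1 and Abca1, while Fads2 did not (edgeR adjusted p = 0.0559) and Scd1 and Il23r fell below the filter on low counts. With cells thinned to 2000 UMIs, 1146 genes could be tested and 0 passed (27 at an unadjusted p under 0.05).

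Of 23 effector and identity genes of type 1 cells, 22 were tested and none passed. In ACC1 KO 11 were higher and 2 lower without overlap, and the median log2 fold change was 0.41, at 0.88 within number 1 and 0.10 within number 2. Of all genes tested, 15.9% were higher and 16.1% lower without overlap. Gzmb, the protease of cytotoxic granules, was at 604 and 427 CPM in ACC1 KO and 191 and 265 CPM in WT (1.17 ± 0.25, edgeR adjusted p = 0.324). Ifng was at 53.7 and 83.2 CPM against 26.9 and 29.9 CPM (1.28 ± 0.27, edgeR adjusted p = 0.323). The chemokine Ccl5 was at 1280 and 977 CPM against 514 and 671 CPM (0.94 ± 0.24, edgeR adjusted p = 0.644). The genotypes did not overlap in any of these 3 genes. Tbx21 overlapped, at 86.7 and 113 CPM in ACC1 KO and 106 and 108 CPM in WT.

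Genes of type 2 cells and precursors had a median of -0.23, at -0.22 within number 1 and -0.01 within number 2, with 2 of 18 higher and 3 lower without overlap. Icos was at 187 and 191 CPM in ACC1 KO and 317 and 261 CPM in WT (-0.58 ± 0.19, edgeR adjusted p = 0.9999). Zbtb16 overlapped between genotypes, as did Il4, at 57.1 and 93.5 CPM in ACC1 KO and 70.4 and 107 CPM in WT. Among homing genes Cdh1, an adhesion molecule, was at 5.37 and 10.5 CPM in ACC1 KO and 33.1 and 24.0 CPM in WT (-1.60 ± 0.37, edgeR adjusted p = 0.431), in a list of 16 with a median of -0.06 and 2 higher and 3 lower without overlap. Among 19 cytokine receptor and Jak-Stat genes 4 were higher and 2 lower, and the median was 0.19. The counts in these lists lay near the 15.9% higher and 16.1% lower of all genes tested. The mix of cells varied between libraries, since 10.2 and 28.6% of ACC1 KO cells and 16.7 and 45.5% of WT cells had 20 or more UMIs of Nkg7 plus Il2rb. The genotypes overlapped in this share, which was higher in number 2 of each, and the count was not scaled to depth. The part of the mix in these medians was not tested.

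No cell cycle gene listed passed. Within mitotic iNKT1 cells the 20 mitotic cyclins, kinases and checkpoint genes had a median of 0.15 (5 higher and 2 lower without overlap), the 20 spindle and kinesin genes 0.14 (6 and 1), the 17 centromere and kinetochore genes 0.11 (7 and 0), the 11 condensin and packing genes 0.08 (2 and 1) and the 8 cytokinesis genes 0.19 (4 and 1). The 34 DNA replication genes had a median of -0.05 with 4 higher and 6 lower. Over all genes tested 15.9% were higher and 16.1% lower without overlap. Ccnb1, the main mitotic cyclin, was at 50.4 and 55.5 CPM in ACC1 KO and 72.5 and 60.2 CPM in WT (-0.26 ± 0.21, edgeR adjusted p = 0.9999), and Plk1 overlapped at 39.0 and 55.5 CPM against 43.5 and 45.2 CPM. Pcna overlapped as well, at 481 and 367 CPM in ACC1 KO and 412 and 423 CPM in WT. Among 13 brakes of the cycle, 4 were higher and 1 lower and the median was 0.29. They include Btg1 at 517 and 361 CPM in ACC1 KO and 321 and 268 CPM in WT (0.61 ± 0.23, edgeR adjusted p = 0.9999).

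The series title names survival as its subject, so genes of cell death were listed too. Of 22 pro-apoptotic genes 18 were tested, 6 were higher and 1 lower without overlap, and the median was 0.07. Pmaip1, which encodes the BH3 protein Noxa, was at 8.06 and 6.99 CPM in ACC1 KO and 2.07 and 1.80 CPM in WT (1.99 ± 0.58, edgeR adjusted p = 0.948). Bbc3, which encodes Puma, was at 47.7 and 30.6 CPM against 26.9 and 15.3 CPM (1.08 ± 0.34, edgeR adjusted p = 0.9999). The 13 tested anti-apoptotic genes had a median of 0.06, with 2 higher and 3 lower. Among them Bcl2 was at 449 and 328 CPM in ACC1 KO and 178 and 157 CPM in WT (1.24 ± 0.22, edgeR adjusted p = 0.140). Neither list had a member past the threshold. Without overlap, 15.9% of all genes tested were higher and 16.1% lower.

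**Figure D5:**
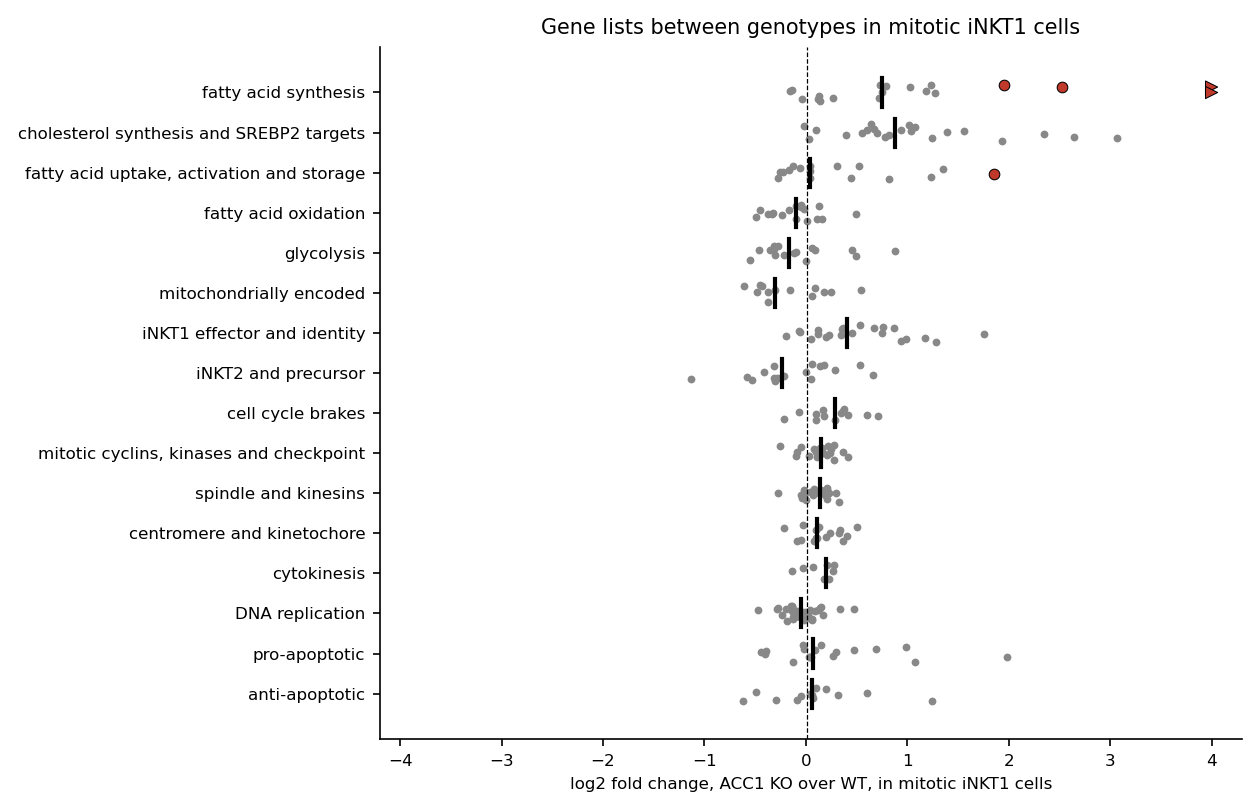
Log2 fold change (ACC1 KO over WT) of each tested gene in 16 lists, in mitotic iNKT1 cells; red points passed the threshold, bars are list medians, the dashed line is the median of all genes, and the 2 red triangles are Fads2 and Scd1, beyond the axis and at 0 UMIs in WT. The fatty acid and cholesterol lists stand to the right, at medians of 0.75 and 0.88.

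Non-mitotic iNKT1 cells were compared in the same way to see where the mitotic ones differ. In the 14003 genes tested there, 0 passed (0.0%), with 539 at an unadjusted p under 0.05, and 91 passed with the DESeq2 Wald test, so that the count depended on the test. Both ACC1 KO libraries were above both WT libraries in 7.79% and below them in 22.8% of those genes. The lipid genes nevertheless stood in the same order. Scd2 was at 213 and 230 CPM in the non-mitotic cells of the ACC1 KO libraries and 34.5 and 23.9 CPM in those of the WT libraries, a log2 fold change of 3.02 ± 0.20 (edgeR adjusted p = 0.0738). Srebf1 was 1.75 ± 0.14 higher there (edgeR adjusted p = 0.119). In the other mitotic cells Scd2 was at 273 and 350 CPM in ACC1 KO and 109 and 98.9 CPM in WT, and did not pass. There 2 of 8495 genes passed (0.0235%), while 14.3% were higher and 9.31% lower without overlap. The 2 were the antigen presentation genes H2-Ab1 and H2-Eb1, both higher in ACC1 KO.

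The difference between mitotic and non-mitotic iNKT1 cells in their genotype effect was tested directly, over 8 sums with the library as a term. Of 13194 genes, 74 passed (0.561%), 24 with a higher (0.182%) and 50 with a lower effect (0.379%) in the mitotic cells. The calls were fragile. The DESeq2 Wald test called 7, a mean of at least 10 CPM left 10, and cells thinned to 2000 UMIs gave 0 of 10347, while without ACC1 KO 1 and without ACC1 KO 2 the counts were 23 and 28. Itga4, an integrin chain for homing, was called with DESeq2, at the mean of 10 CPM and without either ACC1 KO library, but not with cells thinned to 2000 UMIs, with sums thinned to the smallest total (edgeR adjusted p = 0.748) or among cells with no UMI of further lineage genes (edgeR adjusted p = 0.376). It was at 18.1 and 14.6 CPM in the mitotic cells of ACC1 KO 1 and 2 and 16.6 and 20.7 CPM in those of WT 1 and 2, whereas in non-mitotic cells it was at 5.89 and 5.19 CPM in ACC1 KO and 21.01 and 28.8 CPM in WT. The difference of the effects was 1.94 ± 0.30 (edgeR adjusted p = 9.39e-07), and Itga4 was named outside the rule for genes, after its values were seen.

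For Ccl5 the main test gave a higher effect in the mitotic cells, a call that 10 of 18 alternatives kept and that turned to -0.03 with cells thinned to 2000 UMIs. In non-mitotic cells it was at 2457 and 2386 CPM in ACC1 KO and 1709 and 2390 CPM in WT, beside the values for mitotic cells above, and the effects differed by 0.64 ± 0.13 (edgeR adjusted p = 4.83e-04). The receptors Klrb1c, Klrk1 and Cd160 and the survival gene Bcl2 lay in the same direction, by 0.63, 0.51, 0.89 and 0.55, and Klrk1 kept its call in 5 of 18 alternatives. Genes with a lower effect in mitotic cells included Igfbp4, at 73.2 and 89.6 CPM in the mitotic cells of ACC1 KO and 116 and 114 CPM in those of WT, against 2.17 and 3.88 CPM, and 2.09 and 1.46 CPM, in non-mitotic cells. Its difference was -1.47 ± 0.25 (edgeR adjusted p = 1.02e-05). Scd2 was among them at -0.59 ± 0.16 (edgeR adjusted p = 0.0488), with a genotype effect of 2.53 on the log2 scale in mitotic and 3.02 in non-mitotic cells. Against the other mitotic cells 1 gene of 9558 passed (0.0105%). This was Ly6d, a marker of early lymphoid cells, whose level rested on 6 cells of ACC1 KO 1 among the mitotic iNKT1 cells, at 43.0 CPM, and on other mitotic cells of ACC1 KO 1 and WT 1, at 438 and 542 CPM.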

How the data were processed

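Thymic iNKT cells of 2 ACC1 KO and 2 WT libraries were sequenced as single cells with 10x Chromium 3' v3.1 chemistry. The deposited values are UMI counts per gene and barcode, made with Cell Ranger 7.0.0 on mm10, per the submitters' processing notes; the annotation release is not given in the sources used here. No paired fit was used as the main one, since the labels do not say that the numbers 1 and 2 pair the libraries.

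From these counts, UMIs of each class of cell were summed per library and tested with edgeR 4.0.16 in R 4.3.3 (TMM, filterByExpr, robust glmQLFit, Benjamini-Hochberg, threshold 0.05). Interactions kept the library as a term. CPM are counts per 1000000 UMIs of the class in that library, and log2 fold changes are edgeR's fitted values. DESeq2 1.42.0 was an alternative, beside other limits on cells and genes, thinning and leaving out each library. Shares were compared with exact two-sided permutation tests, and intervals are exact Clopper-Pearson ones at 95%. Doublets were scored against simulated ones and kept. Python 3.11.15, numpy 2.4.6, scipy 1.17.1, scikit-learn 1.9.0 and pandas 2.3.3 were used, with coordinates from GENCODE M21, where 32235 of 32285 feature IDs were found. The fits were tested on simulated data.

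Genes were named by rule: the gate genes and Acaca, genes past the threshold, up to 4 members of each list by smallest p, those with the largest differences between classes, and the cell type markers. Any other gene named was chosen after its values were seen. A few genes that the rule picks are not reported here. Members and lists were chosen with earlier results of these data known. Class contrasts follow from the gate and were not tested.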

Additional observations from a re-analysis of the deposited data

Results flagged for a closer look

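The genotype effect differed between mitotic and non-mitotic iNKT1 cells, by edgeR's test of the difference itself, in 74 genes, of which 27 are given here as log2 differences (effect in mitotic minus effect in non-mitotic cells). Single genes with the higher effect in mitotic cells were Ccl5 (0.64), Ccl4 (1.89), Xcl1 (0.52), Cd160 (0.89), Klrb1c (0.63), Klrk1 (0.51), Klra1 (0.68) and Klra5 (0.76), which are no tested group. Of 18 alternatives, 4 kept the call of Xcl1, 5 that of Klrk1 and 7 that of Klra5. Ccl4 was at 17.5 and 17.3 CPM in the mitotic iNKT1 cells of ACC1 KO and 4.14 and 5.39 CPM in those of WT, and at 12.2 and 28.5 CPM against 19.9 and 27.9 CPM in non-mitotic cells. The interferon-induced genes Isg15 and Ifit3 differed by 0.79 and 0.94, the integrin Itga4 by 1.94, the survival gene Bcl2 by 0.55 and the immunoglobulin gene Ighm by 0.67.

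A lower effect in mitotic cells was found for Igfbp4 (-1.47), the peptidase Dpp4 (-1.38), the type 2 cytokine Il13 (-2.42) and 1500009L16Rik (-2.20). Dpp4 was at 34.9 and 24.0 CPM in the mitotic cells of ACC1 KO and 68.3 and 30.8 CPM in those of WT. The same direction held for the cell cycle genes Stmn1 (-0.51), Hist1h1b (-1.49) and E2f2 (-1.26), the glycolytic gene Pgk1 (-0.62), the pro-apoptotic gene Bax (-0.63), Egr1 (-0.86), Ckb (-0.77) and Scd2 (-0.59). The fitted differences of the type 17 genes Blk (-9.37) and Il23r (-9.11) rest on 0 UMIs in the mitotic cells of ACC1 KO and are no measure of size. Against the other mitotic cells, Ly6d was picked out by the same kind of test, at 5.001, from 6 cells of ACC1 KO 1.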

How the results depend on the processing

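Of the values of single genes under the alternatives, 617 kept their direction and call, 88 came newly past the threshold, 238 were no longer past it and 6 reversed. Of the list medians, 324 kept their value within the spread and 105 moved. The counts of calls are less stable, and with 2 libraries a genotype, 36 cells in WT 1 and unequal depth they limit what can be said; the causes were not tested. In mitotic iNKT1 cells 6 genes were called, and 15 by the DESeq2 Wald test, 12 with at least 4 gate genes, 13 without doublets, 56 with no filter on low counts, 3 with a mean of at least 10 CPM, 3 without cells with a type 17 gene, 4 without further lineage genes, 1 with sums thinned to the smallest total and 0 with cells thinned to 2000 UMIs. Leaving out a library gave 4 to 73. In non-mitotic cells 0 were called, and 91 by DESeq2, 234 with no filter, 3 with thinned cells, 2 with thinned sums, 1 with at least 5 UMIs of Nkg7 plus Il2rb, and 2 to 11 without a library. In other mitotic cells 2 were called, and 4 by DESeq2, 16 with no filter, 6 to 20 without a library, and 0 with at least 4 gate genes, with thinned cells, without type 17 or further lineage genes, or at the same mix of gate genes.

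For the difference between mitotic and non-mitotic iNKT1 cells 74 were called, and 7 by DESeq2, 26 without type 17 genes, 10 with a mean of 10 CPM, 11 without further lineage genes, 3 with thinned sums, 0 with thinned cells and 23 to 107 without a library. Against other mitotic cells 1 was called, and 0 by DESeq2 or with thinned cells, 4 with at least 5 UMIs or without doublets, 7 without further lineage genes, 9 with no filter and 4 to 30 without a library. With thinned cells the difference in shares was 0.207 points of kept and 0.514 of iNKT1-gated cells, against 0.822 and 1.04 without further lineage genes; without a library it was 0.932 to 1.90 and 1.22 to 2.19.

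Reversed between mitotic and non-mitotic cells were Dpp4 (8.13), Ccl5 (-0.031) and Bax (0.52) with thinned cells, and Hist1h1b (1.93) and E2f2 (3.31) with thinned sums. Ly6d reversed against other mitotic cells, at -0.34 with thinned cells.

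With the number as a replicate block, 202 genes were called in mitotic, 904 in non-mitotic and 33 in other mitotic cells, and 127 and 17 for the 2 differences; the differences in shares, 1.42 and 1.70 points, are the same by arithmetic. Same-numbered libraries deviated together, with correlations over genes of 0.35 in mitotic iNKT1, 0.827 in non-mitotic iNKT1 and 0.458 in other mitotic cells. The labels do not say that the numbers pair libraries, and sex and depth go with them.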

Other observations

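Other gene groups were compared in the mitotic iNKT1 cells, and none had a gene past the threshold. Over all genes tested, 15.9% were higher and 16.1% lower without overlap, the shares to set beside each count in this section. Of 16 tested genes of glycolysis 3 were higher and 8 lower in ACC1 KO without overlap, with a median log2 fold change of -0.17. Pgk1, which makes ATP in glycolysis, was at 187 and 250 CPM in ACC1 KO and 311 and 305 CPM in WT (-0.46 ± 0.21, edgeR adjusted p = 0.9999). Hk2, the inducible hexokinase, was at 20.8 and 23.8 CPM against 16.6 and 11.1 CPM. Among the 13 genes encoded in mitochondria 1 was higher and 3 were lower, and the median was -0.31.

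Of 15 genes of growth and Myc, 4 were higher and 5 lower, with a median of 0.04. Slc7a5, an amino acid transporter, was at 39.0 and 73.6 CPM in ACC1 KO and 22.8 and 28.1 CPM in WT (1.14 ± 0.32, edgeR adjusted p = 0.823). The 10 tested genes of the integrated stress response had a median of 0.17 (4 higher and 1 lower), the 10 p53 targets outside apoptosis 0.00 (3 and 2), and the 15 early response and heat shock genes 0.19 (1 and 0). Hspa1a, a heat shock protein, was at 2.02 and 121 CPM in ACC1 KO and 10.4 and 44.3 CPM in WT, high in number 2 of each genotype. Ckb, a creatine kinase, stood lower in ACC1 KO at 27.5 and 38.6 CPM, against 116 and 91.6 CPM in WT (-1.55, edgeR adjusted p = 0.0653). Cxcl10, an interferon-induced chemokine, was at 22.2 and 24.7 CPM in ACC1 KO and 0 and 2.70 CPM in WT (3.36, edgeR adjusted p = 0.0567), and was named after its values were seen.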
